A study of Mus musculus with 18 samples.

Results

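Ketone body use and the transport of monocarboxylates in the left ventricle were examined through 6 genes, Bdh1, Oxct1, Acat1, Slc16a1, Slc16a3 and Bsg, chosen by name from the 55450 genes of the count table. All 6 were among the 16270 genes with enough counts to be tested. They were described gene by gene over the 4 groups of the study and set beside Pdk4, the kinase that switches off pyruvate dehydrogenase and that rises when the heart burns fat.

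All 18 libraries came from left ventricle of male FVB/N mice that were 20 weeks old at the end, 1 library per sample. Wild type (WT) littermates and mice with cardiac-specific overexpression of Gαq, the G protein subunit encoded by Gnaq, ate a control diet (CD) or chow with ertugliflozin (ERTU), an inhibitor of the sodium-glucose transporter SGLT2, at 0.5 mg per g for 16 weeks from 4 weeks of age. There were 4 WT and 5 Gαq libraries on CD, and 5 WT and 4 Gαq libraries on ERTU. Gαq mice carried the transgene before ERTU was started, its promoter is not given in the sources used here, and Gnaq counts join transgene and native transcripts.

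The heart takes up ketone bodies and lactate from the blood through proton-linked carriers and burns them in mitochondria. Inside the mitochondrion, 3-hydroxybutyrate is oxidized to acetoacetate by BDH1, acetoacetate is activated with coenzyme A by SCOT, the product of Oxct1, and the resulting acetoacetyl-CoA is cleaved to acetyl-CoA by the thiolase ACAT1. The carriers are MCT1, the product of Slc16a1, which serves uptake in oxidative tissue, and MCT4, the product of Slc16a3, which is typical of glycolytic cells that export lactate. Basigin, the product of Bsg, is the chaperone that brings both carriers to the plasma membrane.

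In GRCm38 coordinates, Bdh1 (ENSMUSG00000046598) lies on chromosome 16 from 31422280 to 31458901, Oxct1 (ENSMUSG00000022186) on chromosome 15 from 4026383 to 4155344, and Acat1 (ENSMUSG00000032047) on chromosome 9 from 53580522 to 53610382. Slc16a1 (ENSMUSG00000032902) lies on chromosome 3 from 104638668 to 104658462, Slc16a3 (ENSMUSG00000025161) on chromosome 11 from 120948480 to 120960868, and Bsg (ENSMUSG00000023175) on chromosome 10 from 79704491 to 79711969. All are protein-coding genes, Acat1 on the minus strand and the others on the plus strand. Exons of Bdh1 share 533 bases with the antisense gene Gm15743 (0.335 to 3.55 CPM, counts scaled to the size of the library), and exons of Oxct1 share 467 bases with BC037032 on the other strand (2.37 to 5.90 CPM). Both neighbours were far below the genes examined, and whether counting separated the strands is not given plainly in the sources used here.

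RefSeq promoters (GRCm38.p6) were given for 4 of the 6 genes, with Bdh1 having 2 start sites; Acat1 and Bsg had no entry. The 250 bases before each start site are shown because Bdh1 and Oxct1 moved together from heart to heart, and because Slc16a1 and Slc16a3 are related carriers with very unlike levels. Capitals mark ACGTG or GCGTG on either strand, the core letters of hypoxia response elements. They are chr16:31422047-31422296 and chr16:31428503-31428752 for Bdh1, chr15:4026178-4026427 for Oxct1, chr3:104638414-104638663 for Slc16a1 and chr11:120948817-120949066 for Slc16a3, each on the plus strand.
Bdh1, first start site: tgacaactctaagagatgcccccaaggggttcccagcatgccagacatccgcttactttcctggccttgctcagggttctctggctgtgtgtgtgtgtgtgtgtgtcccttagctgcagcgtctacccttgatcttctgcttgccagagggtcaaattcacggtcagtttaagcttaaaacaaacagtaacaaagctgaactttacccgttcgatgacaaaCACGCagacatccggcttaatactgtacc
Bdh1, second start site: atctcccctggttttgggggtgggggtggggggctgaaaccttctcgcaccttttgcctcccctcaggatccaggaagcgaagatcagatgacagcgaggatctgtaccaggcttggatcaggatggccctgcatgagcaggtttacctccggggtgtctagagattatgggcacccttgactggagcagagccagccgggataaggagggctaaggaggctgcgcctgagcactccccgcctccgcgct
Oxct1: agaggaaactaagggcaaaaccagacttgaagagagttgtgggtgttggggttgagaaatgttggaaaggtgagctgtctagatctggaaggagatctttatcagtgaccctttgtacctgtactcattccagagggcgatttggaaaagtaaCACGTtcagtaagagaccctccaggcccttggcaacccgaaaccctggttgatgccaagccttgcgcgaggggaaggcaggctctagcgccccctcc
Slc16a1: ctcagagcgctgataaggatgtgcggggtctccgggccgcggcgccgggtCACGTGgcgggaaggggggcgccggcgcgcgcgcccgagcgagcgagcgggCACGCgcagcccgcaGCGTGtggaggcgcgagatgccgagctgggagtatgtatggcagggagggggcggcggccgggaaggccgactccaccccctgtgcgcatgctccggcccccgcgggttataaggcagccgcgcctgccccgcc
Slc16a3: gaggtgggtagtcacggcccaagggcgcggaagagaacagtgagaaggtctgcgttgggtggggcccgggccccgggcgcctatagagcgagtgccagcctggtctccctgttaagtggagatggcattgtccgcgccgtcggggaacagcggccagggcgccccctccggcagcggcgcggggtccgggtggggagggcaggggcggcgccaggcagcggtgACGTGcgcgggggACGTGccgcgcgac

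In the full windows of 300 bases, which run to 50 bases past the start, the Slc16a3 promoter held ACGTG 27 and 14 bases before the start. The Slc16a1 promoter held CACGTG, a palindrome that counts as ACGTG on both strands, 200 bases before the start, GCGTG at 2 places and ACGTG once more 20 bases past the start. Oxct1 had 1 ACGTG and each Bdh1 start had 1 GCGTG, the second of them 36 bases past the start. Of all 32851 promoters, 43.8% held ACGTG or GCGTG, 19.6% held ACGTG and 7.15% held CACGTG. The half-site AGGTCA of nuclear receptors, which 16.3% of promoters held, was in none of these 5 windows on either strand, and neither were the longer TCAAGGTCA and 2 copies of AGGTCA set 1 base apart. The Slc16a1 and Slc16a3 windows were rich in G and C (73.7% and 73.3%, against a median of 52.7% over all promoters), while the first Bdh1 window was not (48.3%). These matches describe letters and not binding sites.

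Libraries held 15383566 to 20908363 counts. Gnaq was between 45.5 and 230 CPM in the 9 WT libraries and between 1641 and 11672 CPM in the 9 Gαq libraries, so that every library matched its genotype. Within Gαq, mean Gnaq was lower on ERTU (3216 ± 1371 CPM, SD, n = 4) than on CD (7473 ± 3818 CPM, SD, n = 5). The log2 change was -1.22 ± 0.52 SE and did not pass the adjustment over all genes (unadjusted p = 0.0294, adjusted p = 0.653 by edgeR). Whether this difference in Gnaq bears on the comparisons between the 2 Gαq groups was not tested. Pdk4 split the libraries. In 4 of them (WT CD library 4 and Gαq CD libraries 7, 8 and 9) it stood at 105 to 261 CPM, and in the other 14 at 1308 to 6869 CPM, with a gap of 2.32 on the log2 scale between the 2 ranges. Since 3 of these 4 are Gαq CD hearts, results that rest on this group are also given without the 4 libraries, a choice made after the data were seen. What set the 4 libraries apart was not tested.

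The cardiomyocyte markers (Myh6, Tnnt2, Ryr2 and others, 10 in all) were each detected, with sums of 65171 to 104120 CPM. Their genotype median differed by -0.15 on the log2 scale, and 4 of 10 were lower in Gαq. Of 8 fibroblast markers, 6 were higher in Gαq (median 0.66), with sums of 1471 to 3076 CPM in WT and 2826 to 4280 CPM in Gαq; of 8 endothelial markers 2 were lower, and of 8 macrophage markers 1 was higher. Over all genes, 19.6% were called by genotype in either direction. Of the markers tested for other cells, 2 of 5 for lymphocytes, 0 of 4 for red blood cells and 0 of 5 for fat were called. By genotype, all fitted values were above 0 for macrophages (median 0.22), lymphocytes (0.74) and fat (0.97), and all were below 0 for red blood cells (-0.20). For ERTU in Gαq the fat markers had a median of 1.66, with none called and sums of 15.2 to 108 CPM on ERTU against 2.13 to 43.7 CPM on CD. Of 4 atrial genes 1 was called higher (Nppa, which failing ventricle also makes), while all 4 had fitted values above 0, with a median of 1.65. Of 3 skeletal muscle genes 2 were higher and Ckm was lower. Their part in the results below was not tested. In bulk tissue, fewer cells of a type and less RNA per cell cannot be told apart.

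The genotype comparison asked how the genes differed in Gαq hearts, over both diets. Of the 6 genes, 4 were called lower in Gαq, namely the 3 enzymes of ketone oxidation and the carrier chaperone, and none was called higher. The call of Oxct1 among them was lost without any 1 of 3 Gαq ERTU libraries. A call is an adjusted p under 0.05 by edgeR's quasi-likelihood test; over all genes the genotype comparison called 19.6% in either direction and 9.92% as lower. The median log2 change of the 6 genes was -0.35, against 0.0038 over all genes tested. Without the 4 libraries low in Pdk4, 5 of the 6 were called, while the calls over all genes fell from 3196 to 2389.

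**Figure D1:**
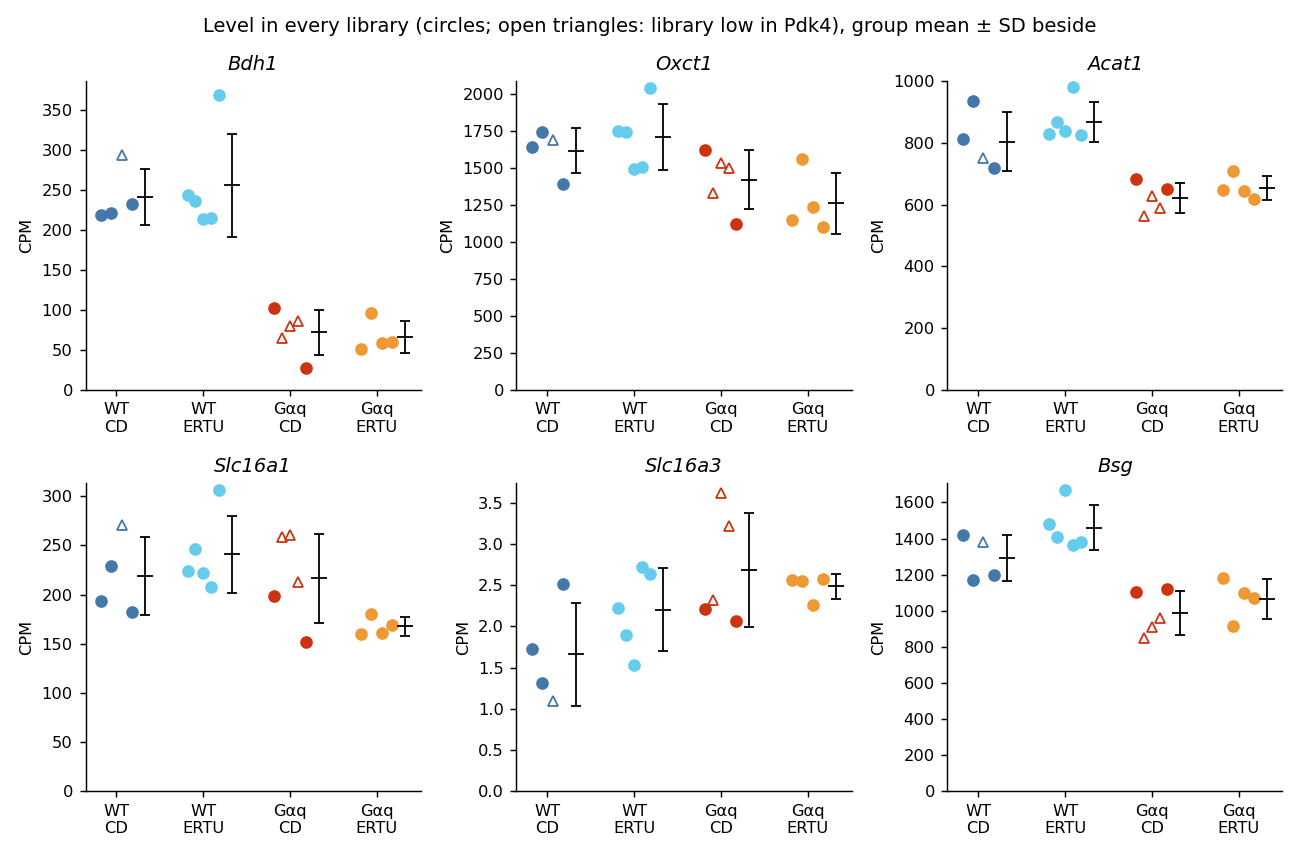
CPM (vertical axis, from 0) of each gene in every library of the 4 groups, with the group mean ± SD in black beside the points and libraries low in Pdk4 as open triangles. Every Gαq library lies below every WT library for Bdh1 (highest Gαq 102, lowest WT 214 CPM) and, narrowly, for Acat1 (708 against 719 CPM), whereas the groups overlap for Oxct1, Slc16a1, Slc16a3 and Bsg.

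Bdh1, the first enzyme of the pathway, showed the largest difference of the 6. It stood at 219, 221, 294 and 232 CPM in the WT CD libraries 1, 2, 4 and 5 and at 244, 237, 214, 216 and 370 CPM in the WT ERTU libraries 11 to 15. In Gαq it stood at 102, 64.9, 79.9, 85.6 and 27.3 CPM in the CD libraries 6 to 10 and at 51.5, 96.1, 58.3 and 59.3 CPM in the ERTU libraries 16, 17, 18 and 20. Thus no Gαq heart reached the WT range, on either diet. The lowest value, in Gαq CD library 10, came from the Gαq heart with the least Gnaq (1641 CPM), while Gαq CD library 9, with the most Gnaq (11672 CPM), held 85.6 CPM of Bdh1. Gnaq stood at 6304, 9701 and 8045 CPM in Gαq CD libraries 6, 7 and 8. In Gαq ERTU libraries 16, 17, 18 and 20 it stood at 2392, 5207, 2236 and 3031 CPM. A relation of Bdh1 to Gnaq was not tested. On CD the mean was 242 ± 35.1 CPM (SD, n = 4) in WT against 72.0 ± 28.3 CPM (SD, n = 5) in Gαq, and on ERTU it was 256 ± 64.8 CPM (SD, n = 5) against 66.3 ± 20.1 CPM (SD, n = 4). Bdh1 was 3.60-fold lower in Gαq over both diets (log2 change -1.85 ± 0.19 SE, adjusted p = 6.21e-07 by edgeR). It was lower by 1.75 on the log2 scale on CD (adjusted p = 0.00027) and by 1.95 on ERTU (adjusted p = 0.000177). Both calls held without the 4 libraries low in Pdk4, where the change was -1.79 on CD (adjusted p = 0.0315) and -1.95 on ERTU (adjusted p = 0.000678).

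Oxct1 encodes SCOT, the enzyme that commits ketone bodies to oxidation and that the liver lacks. Its levels were 1641, 1744, 1693 and 1396 CPM in WT CD, 1750, 1747, 1496, 1508 and 2041 CPM in WT ERTU, 1623, 1332, 1538, 1499 and 1120 CPM in Gαq CD, and 1148, 1561, 1234 and 1105 CPM in Gαq ERTU. The genotypes overlapped on both diets, with 1 Gαq ERTU heart (library 17) above the 2 lowest WT ERTU hearts. Over both diets Oxct1 was 1.24-fold lower in Gαq (log2 change -0.31 ± 0.10 SE, adjusted p = 0.0242), a call lost without Gαq ERTU library 16 (adjusted p = 0.0525), 18 (0.0515) or 20 (0.0589). The difference was called on ERTU (-0.44 ± 0.13 SE, adjusted p = 0.0482) and not on CD (-0.19 ± 0.13 SE, adjusted p = 0.468), and the difference between these 2 values was not called (-0.25, 95% interval -0.64 to 0.14, adjusted p = 1.00). The call on ERTU was near the threshold and was lost when any 1 of 12 libraries was left out (WT CD 1, 2 or 4, WT ERTU 11, 12 or 15, Gαq CD 7, 8 or 9, Gαq ERTU 16, 18 or 20), with adjusted p up to 0.149, as well as without the 4 libraries low in Pdk4, none of which is an ERTU library, where the fitted change was as large (-0.44, adjusted p = 0.073).

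Acat1, the mitochondrial thiolase of the last step, which also works in isoleucine breakdown, was at 811, 935, 750 and 719 CPM in WT CD and at 830, 867, 839, 980 and 825 CPM in WT ERTU. In Gαq it was at 684, 562, 628, 590 and 650 CPM on CD and at 646, 708, 643 and 616 CPM on ERTU. The genotypes did not overlap on either diet. Acat1 was 1.31-fold lower over both diets (log2 change -0.39 ± 0.07 SE, adjusted p = 0.000202), with similar fitted values on CD (-0.37, adjusted p = 0.0198) and on ERTU (-0.41, adjusted p = 0.010). On CD the call was lost without Gαq CD library 7 (adjusted p = 0.0587), WT CD library 1 (0.0595) or WT CD library 2 (0.0951), and without the 4 libraries low in Pdk4 (-0.30, adjusted p = 0.417).

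Slc16a1, the MCT1 carrier, was called lower in Gαq on ERTU only, and the difference between the diets did not pass. Its levels were 194, 229, 270 and 183 CPM in WT CD, 224, 246, 222, 207 and 306 CPM in WT ERTU, 199, 259, 260, 213 and 151 CPM in Gαq CD and 160, 180, 161 and 170 CPM in Gαq ERTU. All 4 Gαq ERTU hearts lay below every WT ERTU heart, whereas the genotypes overlapped on CD (151 to 260 CPM in Gαq, 183 to 270 CPM in WT). On CD no difference was resolved (log2 change -0.02 ± 0.15 SE, 95% interval -0.33 to 0.30, adjusted p = 0.970), and on ERTU Gαq was 1.44-fold lower (-0.52 ± 0.15 SE, adjusted p = 0.0361). The difference between these 2 differences was -0.51 ± 0.21 SE and did not pass over all genes (unadjusted p = 0.0279, adjusted p = 1.00 by edgeR). Over both diets the change was -0.27 ± 0.12 SE (adjusted p = 0.121), not called. The call on ERTU was lost without any of the 4 Gαq ERTU libraries (adjusted p from 0.0508 to 0.0997), WT ERTU library 12 (0.0726) or WT ERTU library 15 (0.105).

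The 4 libraries low in Pdk4 held the most Slc16a1 of their own groups. WT CD library 4 was the highest of 4 (270 CPM), and Gαq CD libraries 7, 8 and 9 were the 3 highest of 5 (213 to 260 CPM). The Gαq CD libraries with high Pdk4, 6 and 10, held 199 and 151 CPM, on either side of the range of the Gαq ERTU hearts (160 to 180 CPM). Without the 4 libraries Slc16a1 was lower in Gαq over both diets (-0.41, adjusted p = 0.0117), and the ERTU effect within Gαq moved from -0.37 to -0.06. The genotype difference on CD moved from -0.02 to -0.20 and the interaction from -0.51 to -0.32, and neither was called. On ERTU the call held (-0.53, adjusted p = 0.0132 by edgeR).

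Slc16a3, the MCT4 carrier, was barely expressed, with 19 to 79 counts per library. It stood at 1.73, 1.31, 1.10 and 2.51 CPM in WT CD, 2.22, 1.90, 1.54, 2.73 and 2.64 CPM in WT ERTU, 2.21, 2.32, 3.61, 3.22 and 2.06 CPM in Gαq CD and 2.56, 2.55, 2.26 and 2.57 CPM in Gαq ERTU. It was the only 1 of the 6 with a fitted value above 0 by genotype, 0.43 ± 0.18 SE on the log2 scale (adjusted p = 0.0994), which did not pass. On CD the value was 0.70 ± 0.25 SE (adjusted p = 0.0961), which passed when WT CD library 5 was left out (0.96, adjusted p = 0.023) and fell to 0.21 without the 4 libraries low in Pdk4. At this depth a difference between genotypes was not resolved.

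Bsg, the carrier chaperone, was at 1422, 1170, 1383 and 1200 CPM in WT CD and at 1480, 1411, 1668, 1363 and 1383 CPM in WT ERTU. In Gαq it was at 1105, 849, 908, 959 and 1122 CPM on CD and at 1184, 919, 1098 and 1071 CPM on ERTU. Within each diet the genotypes did not overlap. Bsg was 1.34-fold lower in Gαq over both diets (log2 change -0.42 ± 0.08 SE, adjusted p = 0.000424), by 0.39 on CD (-0.39, adjusted p = 0.0337) and by 0.45 on ERTU (-0.45, adjusted p = 0.0135). On CD, the 3 lowest values were those of the 3 Gαq libraries low in Pdk4 (849 to 959 CPM). Without the 4 such libraries the change on CD was -0.18 (adjusted p = 0.749). The call on CD was also lost without Gαq CD library 7, 8 or 9 (adjusted p = 0.0936, 0.0838 and 0.0709), WT CD library 1 (0.129) or WT CD library 4 (0.0904).

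By diet group, 3 of the 6 genes were called lower in Gαq on CD (Bdh1, Acat1 and Bsg), where 8.1% of all genes were called and 4.1% were called lower. On ERTU, 5 were called lower (all but Slc16a3), where 8.17% of all genes were called and 4.24% were called lower. The medians of the 6 genes were -0.28 on CD and -0.44 on ERTU on the log2 scale, against 0.0061 and -0.00067 over all genes. Without the 4 libraries low in Pdk4, which left 3 WT CD and 2 Gαq CD libraries, 1 gene (Bdh1) was called on CD, where the calls over all genes fell from 1318 to 317. On ERTU 4 were called, where the calls over all genes rose from 1330 to 1427.

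**Figure D2:**
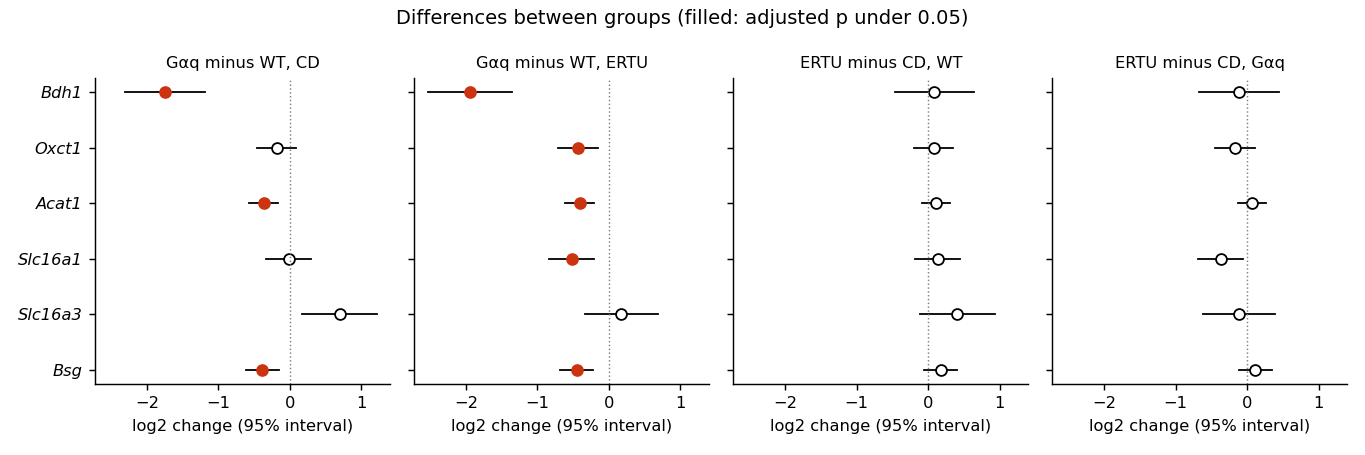
Log2 change of each gene (horizontal axis) with its 95% interval in the 4 comparisons of 2 groups; filled points have an adjusted p under 0.05. The points right of 0 in the genotype panels are those of Slc16a3 (0.70 on CD, 0.18 on ERTU), and every interval for ERTU against CD includes 0 except that of Slc16a1 in Gαq hearts (-0.68 to -0.05), which did not pass the adjustment.

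The diet comparisons asked whether ERTU changed the same genes. None of the 6 was called for diet over both genotypes, for ERTU in WT or for ERTU in Gαq, where edgeR called 0%, 0% and 0.00615% of all genes (0, 0 and 1 of 16270). At an unadjusted p under 0.05 there were 1252, 365 and 1240 genes, and the Wald test of DESeq2 called 2, 0 and 4. The interaction called 0% by edgeR, with 313 genes at an unadjusted p under 0.05 and 0 by DESeq2.

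In WT the 6 fitted ERTU effects were all above 0 and none was called. They ran from 0.08 for Oxct1 (95% interval -0.20 to 0.35) through 0.09 for Bdh1 (-0.47 to 0.64), 0.11 for Acat1 (-0.09 to 0.31), 0.14 for Slc16a1 (-0.18 to 0.45) and 0.18 for Bsg (-0.06 to 0.41) to 0.41 for Slc16a3 (-0.12 to 0.93). In Gαq the values were -0.12 for Bdh1 (-0.68 to 0.44), -0.17 for Oxct1 (-0.45 to 0.10), 0.07 for Acat1 (-0.13 to 0.27), -0.11 for Slc16a3 (-0.61 to 0.39) and 0.11 for Bsg (-0.12 to 0.34). Slc16a1 had the only unadjusted p under 0.05 among them (-0.37 ± 0.15 SE, unadjusted p = 0.0245, adjusted p = 0.653). In Gαq the upper limit for Bdh1 (0.44) was smaller than the fall with genotype on CD over its whole 95% interval (-2.31 to -1.19). For Acat1 and Bsg the upper limits (0.27 and 0.34) lay within the size of that interval (-0.57 to -0.17 and -0.62 to -0.16). Whether ERTU could offset the fall of these 2 genes was therefore not resolved. The comparisons share groups, so that WT CD, for instance, enters both the genotype difference on CD and the ERTU effect in WT.

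To compare levels between genes, counts were also scaled to exon length and then to the library (TPM). In WT CD the order was Bsg (2157 ± 174 TPM, SD, n = 4), Oxct1 (1321 ± 71.4), Acat1 (647 ± 62.0), Bdh1 (188 ± 27.9), Slc16a1 (149 ± 24.1) and Slc16a3 (0.960 ± 0.414). Libraries of neighbouring genes did not overlap except for Bdh1 (165 to 225 TPM) and Slc16a1 (128 to 182 TPM). In both Gαq groups these last 2 genes changed places, with Slc16a1 at 148 ± 35.1 TPM on CD (n = 5) and 111 ± 11.7 on ERTU (n = 4) above Bdh1 at 55.9 ± 21.6 and 50.1 ± 17.5 TPM, with no overlap. The order of the other genes was the same in all 4 groups. MCT1 transcripts exceeded those of MCT4 in every library, by 75.2 to 295 times. This ratio is rough, since Slc16a3 had 19 to 79 counts per library. Exon lengths also joined all annotated transcripts of a gene (1 for Slc16a1, 8 for Slc16a3).

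The relation to Pdk4 was examined across libraries. Because Pdk4 fell into 2 separate ranges, no correlation was taken over all 18 libraries, and the 4 low libraries were too few for one of their own. In the 14 libraries with high Pdk4, log2 levels of Bsg rose with those of Pdk4 (Pearson's r = 0.677, permutation p = 0.00772, adjusted over the 6 genes p = 0.0463; Spearman's rho = 0.697, permutation p = 0.00695, adjusted p = 0.0417). Without the 2 libraries farthest from the median of Pdk4 (WT ERTU library 11 and Gαq ERTU library 17), r for Bsg was 0.514 (permutation p = 0.0868, adjusted p = 0.174), which did not pass. The call was also lost when any 1 of 10 of the 14 libraries was left out (WT CD 1, WT ERTU 11, 12 or 14, Gαq CD 6 or 10, Gαq ERTU 16, 17, 18 or 20), with r of 0.584 or more and adjusted permutation p up to 0.0959. For the other genes r was 0.573 (Bdh1), 0.336 (Oxct1), 0.579 (Acat1), 0.343 (Slc16a1) and -0.394 (Slc16a3), with rho of 0.582, 0.385, 0.578, 0.486 and -0.464, and none passed (adjusted permutation p from 0.0655 to 0.235 for r and from 0.0664 to 0.173 for rho). Without WT ERTU library 15, r passed for Bdh1 (0.761, adjusted permutation p = 0.00729), Acat1 (0.656, adjusted permutation p = 0.0226) and Slc16a1 (0.709, adjusted permutation p = 0.0139).

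**Figure D3:**
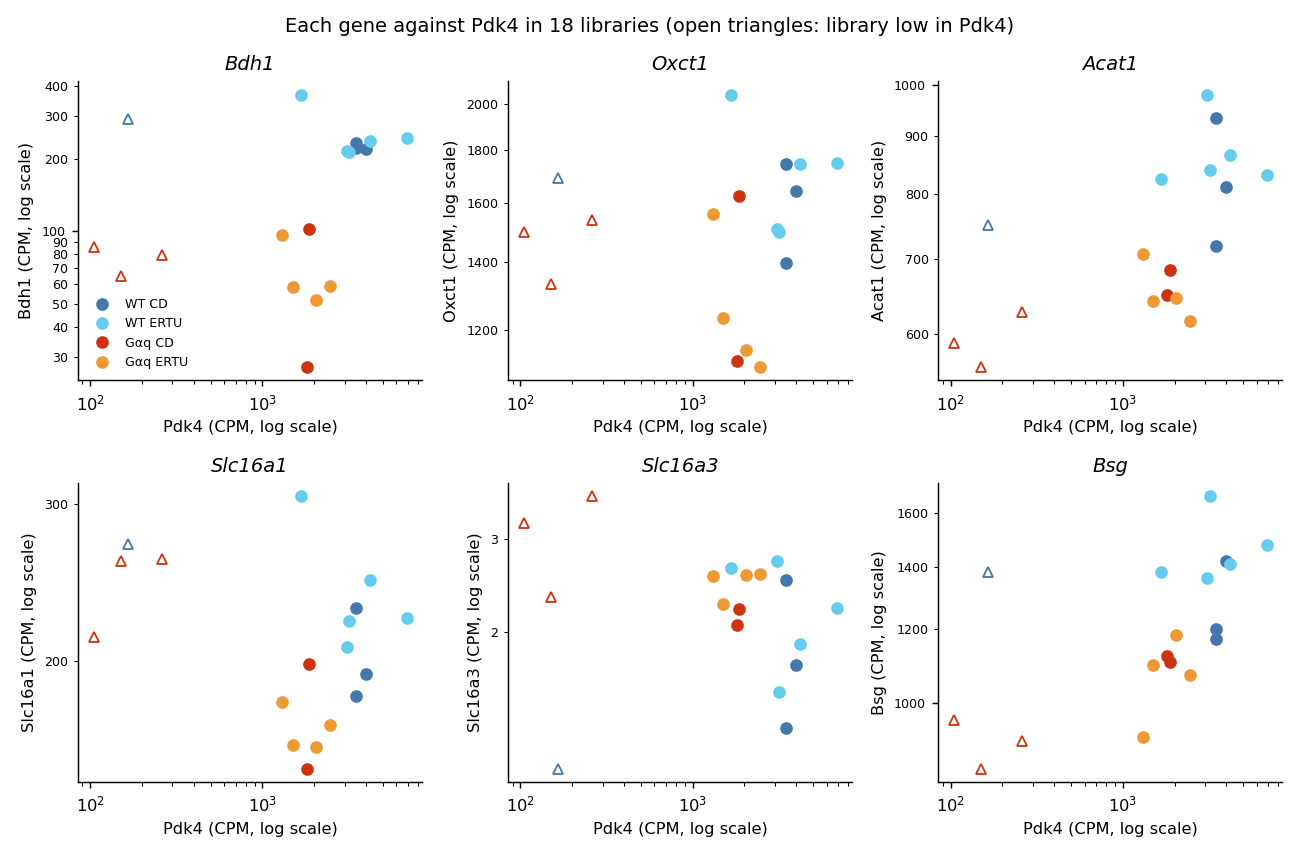
Each gene (vertical axis, CPM, log scale) against Pdk4 (horizontal axis, CPM, log scale) in 18 libraries coloured by group; open triangles are the 4 libraries low in Pdk4 (105 to 261 CPM). Among the other 14 libraries the Gαq points (1308 to 2471 CPM of Pdk4) overlap only partly with the 8 WT points (1677 to 6869 CPM), and lie below all of them for Bdh1 and Acat1.

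Among these 14 libraries, Pdk4 was also lower in Gαq (1308 to 2471 CPM in 6 libraries) than in most WT hearts (1677 to 6869 CPM in 8), so that a relation over both genotypes contains the genotype difference. Within the 8 WT libraries r for Bsg was 0.123 (exact permutation p = 0.771) and within the 6 Gαq libraries it was 0.612 (exact permutation p = 0.192). For Bdh1 r was -0.600 in WT, where rho was 0.214 and so opposite in sign, and -0.289 in Gαq (rho = -0.0857). For Acat1 r was -0.0486 in WT (rho = -0.0714) and -0.739 in Gαq (rho = -0.600). None of the 12 values of r passed (adjusted exact permutation p from 0.486 to 0.907). With each library expressed as its deviation from the group mean, r was 0.337 for Bsg and between -0.462 and -0.161 for the other 5 genes, with adjusted permutation p from 0.419 to 0.691. With 6 and 8 libraries, a relation within genotypes was not resolved for any of the 6 genes.

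WT ERTU library 15 joined the lowest Pdk4 (1677 CPM) of the 8 WT hearts in the high range to the highest Bdh1 (370 CPM), Oxct1 (2041 CPM) and Slc16a1 (306 CPM) of all 18 libraries. Its Acat1 (825 CPM) was the lowest of the WT ERTU group. Gαq CD library 10, in contrast, held the lowest Bdh1 (27.3 CPM) and Slc16a1 (151 CPM) of all libraries, with Oxct1 (1120 CPM) the lowest of its group.

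Across hearts of the same group, Bdh1, Oxct1 and Slc16a1 varied together. Over the deviations of 18 libraries from their group means, Bdh1 and Oxct1 had r = 0.843 (permutation within groups p = 0.00024, adjusted over 15 pairs p = 0.0036) and rho = 0.806 (permutation p = 0.00088, adjusted p = 0.0132). Without the 2 libraries farthest from the median, r was 0.814, and in the 14 libraries with high Pdk4 it was 0.844. Bdh1 and Slc16a1 had r = 0.679 (permutation p = 0.0118, adjusted p = 0.0592) and rho = 0.587 (adjusted p = 0.0335), and Oxct1 and Slc16a1 had r = 0.638 (permutation p = 0.00768, adjusted p = 0.0576) and rho = 0.666 (adjusted p = 0.0335), so that both passed by rank only. None of the other 12 pairs passed. Other genes matched as closely within groups, among those most alike over the 18 libraries (r = 0.915 for Oxct1 with Mavs, 0.928 for Slc16a1 with Magt1). How common such values are over all genes was not tested. Bsg, although the chaperone of both carriers, had r of -0.489 with Slc16a1 and -0.464 with Slc16a3 (adjusted permutation p = 0.234 for each).

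**Figure D4:**
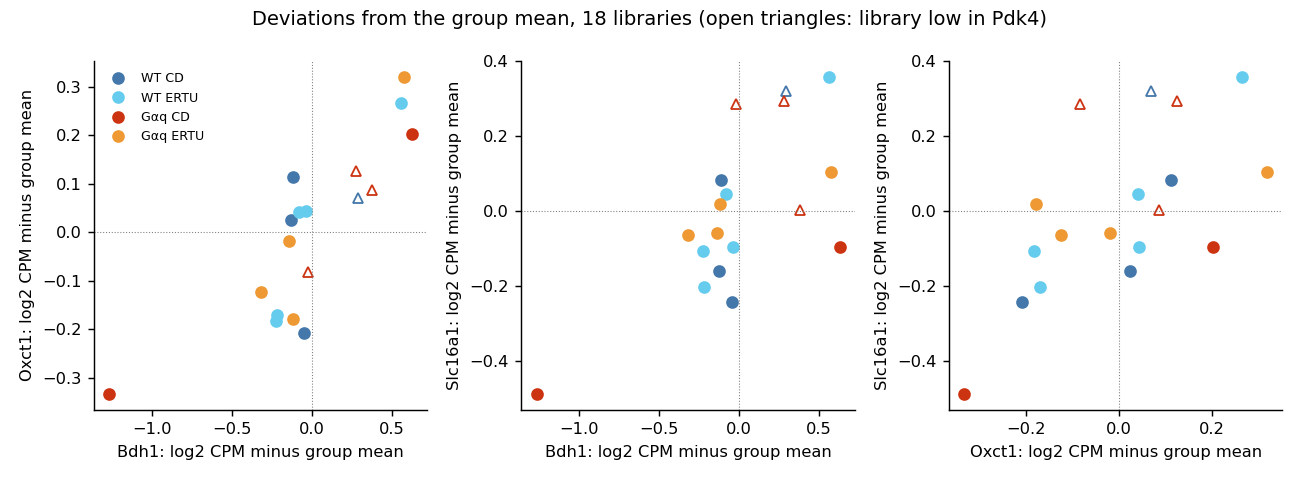
Deviation of log2 CPM from the group mean for 3 pairs of genes in 18 libraries; open triangles are libraries low in Pdk4. Bdh1 and Oxct1 rise together (r = 0.843), with Gαq CD library 10 at the lower left of every panel.

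The genes most like each member over the 18 libraries were named by Pearson's r of log2 CPM, as a description that contains the group differences. For Bdh1 they were Mccc2 (0.959), Atp2a2 (0.952) and Slc38a3 (0.950), the first an enzyme of leucine breakdown, the second the calcium pump SERCA2 and the third a glutamine carrier. For Oxct1 they were Mavs (0.956), Taco1 (0.951) and Slc8a1 (0.947), and for Acat1 Gm13910 (0.970), Cbr4 (0.960) and Coq3 (0.959). For Slc16a1 they were Magt1 (0.919), Sec61a2 (0.918) and Gm10184 (0.915). For Bsg they were Mcrip2 (0.955), Mrpl14 (0.953) and Oxld1 (0.951), and for Slc16a3, at its low counts, Chpf (0.851), Syt11 (0.838) and Klc3 (0.827). Gm13910 is annotated as a processed pseudogene, so that its counts may hold reads of the gene it copies.

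Of 38 further genes of ketone, lactate and pyruvate metabolism and their regulators, 28 had enough counts to be tested. By genotype, 8 were called lower and 1 higher in Gαq, and 19 were not called, with a median log2 change of -0.15, against 19.6% of all genes called in either direction and 9.92% called lower. On CD 2 were lower and 1 higher, a share near the 8.1% of all genes, on ERTU 3 were lower and 1 higher (8.17% of all genes in either direction), and in the 3 diet comparisons and the interaction none was called by edgeR or DESeq2. Without the 4 libraries low in Pdk4, 7 were lower and 1 higher by genotype of 29 tested, 0 were called on CD, and 4 were lower and 1 higher on ERTU. Over all genes that fit called 2389 by genotype, 317 on CD and 1427 on ERTU, against 3196, 1318 and 1330 with all 18 libraries.

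By list, 0 of 2 further genes of ketone use, 0 of 2 of ketone synthesis, 3 of 9 of the carrier family, 0 of 2 chaperones, 2 of 5 of lactate and pyruvate handling, 0 of 1 receptor and 4 of 7 regulators were called by genotype, against 19.6% of all genes.

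Among the other members of the carrier family, 3 of 9 tested were lower in Gαq. Slc16a7, which encodes MCT2, a high-affinity carrier of monocarboxylates, averaged 11.9 ± 1.10 CPM (SD, n = 4) in WT against 8.63 ± 1.27 (n = 5) in Gαq on CD, and 13.1 ± 3.10 (n = 5) against 7.45 ± 0.494 (n = 4) on ERTU. It was lower by genotype (-0.63 ± 0.11 SE, adjusted p = 0.000289) and on ERTU (-0.81, adjusted p = 0.00194), with the value on CD not called (-0.46, adjusted p = 0.0622). Slc16a10, an aromatic amino acid carrier, was lower by genotype (-0.52, adjusted p = 0.00234) and on ERTU (-0.56, adjusted p = 0.0435), the second of which was lost when any 1 of 8 libraries was left out (WT ERTU 12, 13 or 15, Gαq CD 6 or 7, Gαq ERTU 16, 18 or 20, with adjusted p up to 0.130). Slc16a13, which encodes MCT13, was lower by genotype (-0.54, adjusted p = 0.00702). Neither of the 2 other chaperones tested was called.

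Of 5 genes for lactate and pyruvate, 2 were called. Mpc2, a subunit of the mitochondrial pyruvate carrier, was lower by genotype (-0.56 ± 0.08 SE, adjusted p = 2.79e-05), on CD (-0.50, adjusted p = 0.00773) and on ERTU (-0.62, adjusted p = 0.00159). Ldhd, the mitochondrial dehydrogenase of D-lactate, was lower by genotype (-0.36, adjusted p = 0.00251) and on CD (-0.40, adjusted p = 0.0323), a call lost without Gαq CD library 7, 8 or 9 or WT CD library 2 or 4 (adjusted p up to 0.155). Without the 4 libraries low in Pdk4 the values on CD were -0.35 for Mpc2 (adjusted p = 0.435) and -0.21 for Ldhd (adjusted p = 0.698).

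Of 7 regulators, 3 were lower and 1 was higher by genotype. Ppargc1a, a coactivator of mitochondrial genes, was lower by 0.37 (-0.37 ± 0.11 SE, adjusted p = 0.0261), a call lost without Gαq ERTU library 20 (adjusted p = 0.0565), WT CD library 1 (0.0723) or the 4 libraries low in Pdk4 (-0.35, adjusted p = 0.105). Its partner Esrra, an orphan nuclear receptor, was lower (-0.25 ± 0.06 SE, adjusted p = 0.00476), as was Epas1, the hypoxia factor typical of endothelium (-0.34 ± 0.09 SE, adjusted p = 0.00677). Hif1a, whose product switches cells toward glycolysis at low oxygen, was higher by genotype (0.55 ± 0.09 SE, adjusted p = 9.39e-05), on CD (0.60, adjusted p = 0.00444) and on ERTU (0.50, adjusted p = 0.014). It averaged 67.3 ± 8.98 CPM (SD, n = 4) in WT against 102 ± 17.2 (n = 5) in Gαq on CD, and 62.7 ± 5.95 (n = 5) against 88.5 ± 10.6 (n = 4) on ERTU. On ERTU the call was lost without Gαq ERTU library 17 (0.41, adjusted p = 0.0592), and on CD without the 4 libraries low in Pdk4 (0.48, adjusted p = 0.204).

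**Figure D5:**
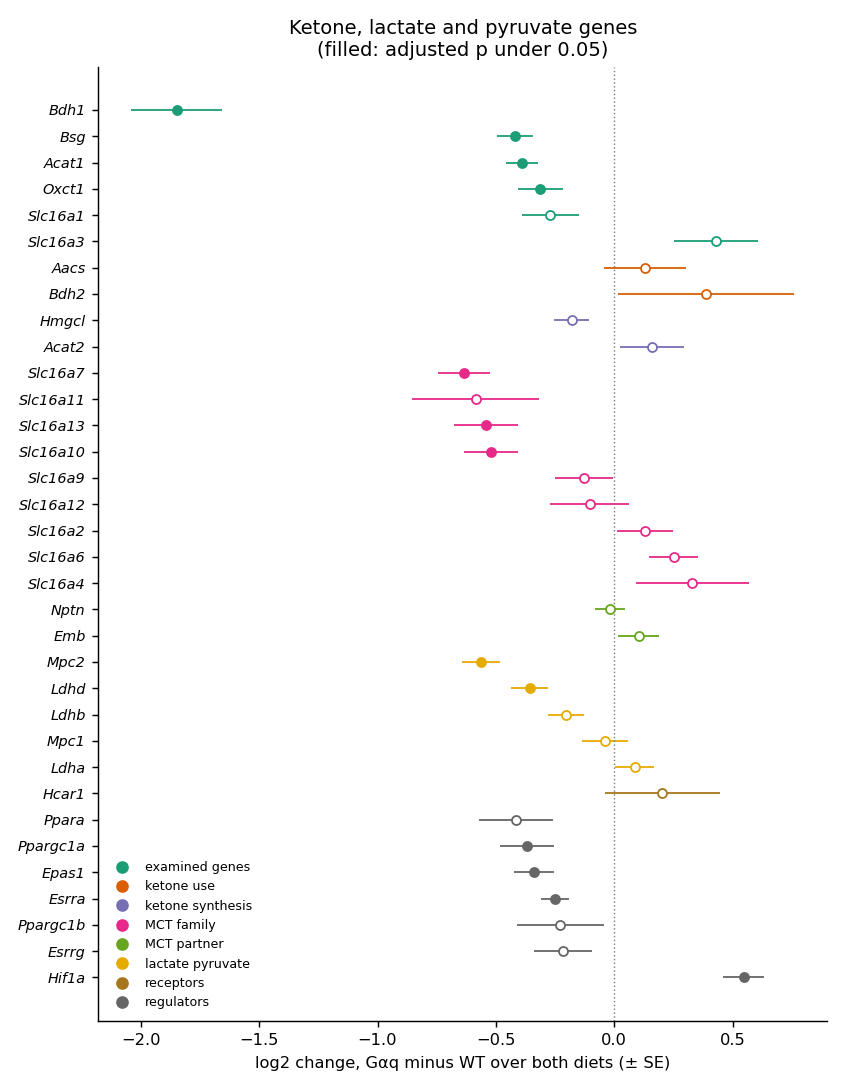
Log2 change by genotype (horizontal axis, Gαq minus WT over both diets, ± SE) of the 6 examined genes and 28 others, coloured by list; filled points have an adjusted p under 0.05. Bdh1 (-1.85) lies farthest to the left, and Hif1a (0.55) is the filled point to the right of 0.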

How the data were processed

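RNA sequencing was performed on left ventricle of 18 mice. The deposited count table holds raw counts of uniquely aligned read pairs per nuclear-encoded Ensembl gene, which the authors made from poly(A)-selected, paired-end libraries with STAR 2.6.0c on build mm10 and featureCounts of Subread 1.6.2, after FastQC 0.11.7 (versions from the submitters' processing notes). The other deposited table holds the same genes on a log2-like scale after variance stabilization by the authors in DESeq2 (1.23.10 in those notes). Recomputing it from the counts gave a largest difference of 5.18e-11. Unique alignment loses reads that fit 2 places, and poly(A) selection depends on intact RNA.

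Counts were tested in R 4.3.3 with edgeR 4.0.16 (filterByExpr, TMM, quasi-likelihood F tests). The 16270 genes kept left out 0.0906% of counts. Of the gene IDs, 55104 (99.4%) matched a symbol. Genotype and diet came from an additive model, and the 4 differences between 2 groups and the interaction from 1 mean per group over all 18 libraries. The Benjamini-Hochberg adjustment was taken over all genes, with a threshold of 0.05. SE is the size of the log2 change divided by the square root of F, and 2 was the prior count for log2 CPM. TPM used exon lengths of GENCODE M21. Permutation tests were 2-sided with 100000 resamples, exact under 10 values. Correlations with Pdk4 were taken within ranges of Pdk4 wherever neighbouring libraries differed by over 1 on the log2 scale.

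Samples were grouped by their labels. Table columns name the group and a number that runs across the series, which is used here as the library name. The labels give separate samples per group, so that p-values measure the spread between them. The labels and tables give no sequencing batch. The genes and lists were chosen with earlier results of these data known. Genes named are the 6 examined, Pdk4, Gnaq, each gene of the pathway lists called in any of 7 comparisons (1 gene of those lists is not reported here), and the 3 genes most like each of the 6. Alternatives were a filter at a mean CPM of at least 1, no low-count filter, median-of-ratios size factors, a prior count of 0.5, DESeq2 1.42.0, limma 3.58.1 voom with quality weights, only the groups compared, a 4-group model, the deposited transformed values, and leaving out each library. Before use, the edgeR test of ERTU in Gαq was run on counts simulated with and without changed genes. The other comparisons and the permutation tests were not tried in this way.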

Additional observations from a re-analysis of the deposited data

Results flagged for a closer look

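Of 28 sets of group values of the 6 genes and Pdk4, 4 held a library whose gap to its nearest neighbour, as a share of the range of the group, passed Dixon's limit at the 95% level. Chance gives about 1.4 of 28. Bdh1 in WT ERTU library 15 (370 CPM) was the highest of its group, with a gap of 0.807 of the range. Acat1 in WT ERTU library 14 (980 CPM) was the highest of its group, with a gap of 0.731. Slc16a3 in Gαq ERTU library 18 (2.26 CPM) was the lowest of its group, with a gap of 0.925, in a group whose other libraries lay within 2.55 to 2.57 CPM. Pdk4 in WT CD library 4 (166 CPM) was the lowest of its group, with a gap of 0.875. No difference between the ERTU effects in WT and in Gαq passed for any of the 6 genes.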

How the results depend on the processing

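The number of the 6 genes called stayed within 1.5 times its main value in 6 of 7 comparisons, under every setting that kept all libraries or left out the 4 low in Pdk4. The exception was Gαq on CD, where 3 were called and 1 was called with no low-count filter, with only the 2 groups compared and without the 4 libraries low in Pdk4. Over all genes these settings called 1197, 1007 and 317 on CD, against 1318 in the main fit. Leaving out 1 library gave 1 to 4 called on CD (1 without Gαq CD library 7 or WT CD library 1), 3 to 5 on ERTU (3 without Gαq ERTU library 16, 18 or 20 or WT ERTU library 12 or 15) and 3 to 4 by genotype. The calls over all genes moved too. On CD they ran from 788 to 1414 (934 without Gαq CD library 7, 788 without WT CD library 1). On ERTU they ran from 946 to 1696, against 1330 in the main fit, and by genotype from 2812 to 3458, against 3196. With no low-count filter and with only the 2 groups compared, Acat1 on CD (adjusted p = 0.0679 and 0.0747), Bsg on CD (0.0852 and 0.0901) and Oxct1 on ERTU (0.0752 and 0.0719) were not called. With voom, Slc16a1 (-0.33, adjusted p = 0.0251) and Slc16a3 (0.48, adjusted p = 0.0357) were called by genotype. Bdh1, Acat1 and Bsg by genotype kept their calls under every setting.

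Values near 0 changed sign. Without the 4 libraries low in Pdk4, the effect of diet was 0.13 for Bdh1, 0.0088 for Oxct1 and 0.12 for Slc16a1, and that of ERTU in Gαq was 0.037 for Bdh1, -0.032 for Acat1, -0.062 for Bsg and 0.22 for Slc16a3; the cause was not tested. Leaving out 1 library, the ranges that crossed 0 were -0.12 to 0.0081 for Acat1 and -0.12 to 0.00094 for Bsg in the interaction, -0.11 to 0.065 for Bdh1 by diet, -0.084 to 0.20 for Bdh1 with ERTU in WT, -0.35 to 0.042 for Bdh1 and -0.20 to 0.023 for Slc16a3 with ERTU in Gαq, and -0.095 to 0.10 for Slc16a1 on CD. None of these was called.

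For the relation to Pdk4 in 14 libraries, r of Bsg was 0.670 with the deposited transformed values, 0.669 with median-of-ratios size factors, 0.514 without the 2 farthest libraries and 0.337 on deviations from the group mean, and passed in none of these. On the deviations r was -0.328 for Bdh1, -0.348 for Oxct1, -0.161 for Acat1 and -0.462 for Slc16a1, opposite in sign to the values over both genotypes. Leaving out 1 library, r ran from 0.584 to 0.775 for Bsg, from 0.524 to 0.761 for Bdh1, from 0.527 to 0.656 for Acat1 and from 0.265 to 0.709 for Slc16a1. The call of Bsg was lost without any 1 of 10 libraries (adjusted p up to 0.0959), and Bdh1, Acat1 and Slc16a1 passed without WT ERTU library 15 (adjusted p = 0.00729, 0.0226 and 0.0139). No paired analysis was possible because the table columns are numbered through all groups, and nothing ties those numbers to the replicate numbers of the labels. The counts of Slc16a3 limit what can be said of it, and 4 or 5 mice per group limit all values.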
